A study of Homo sapiens with 16 samples.

Results

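The genes described here are 5 keratins (KRT7, KRT8, KRT15, KRT18 and KRT19), the epithelial adhesion molecule EPCAM and the intermediate filament gene VIM, which encodes vimentin. They were chosen by name as markers of epithelial and mesenchymal state, with earlier results of these data known. These 7 were all found among the 35606 genes of the expression table. RNA sequencing was performed in 4 human cell lines treated with 1 µM AU-15330, a degrader of SMARCA2 and SMARCA4, the ATPases of the mSWI/SNF chromatin remodeling complex, or with the vehicle DMSO. Every arm of every line had 2 libraries, which makes 16. The lung lines NCI-H526 and NCI-H1048 come from small cell lung cancer of the subtype that depends on POU2F3 (SCLC-P), and the plasma cell lines NCI-H929 and MM1.S come from multiple myeloma. The DMSO arm of each line received vehicle only, and no line carries a further engineered change according to the labels. Sample names give a treatment of 24 h, the treatment protocol allows from 12 h, and the series description gives 4 to 12 h. Figure legends of the study name both 12 h and 24 h for lung line RNA, so the duration is uncertain. Each group is a single cell line, and the labels do not say whether the 2 libraries of a group came from separate cultures. The figure legend that names 12 h calls the RNA-seq samples of the lung lines biological replicates. The legend that names 24 h makes no such statement, and none was found for the RNA of the myeloma lines. In the myeloma lines p-values may describe technical spread alone. The same holds for the lung lines if their libraries are not those of the 12 h legend. Ribosomal RNA was depleted for the MM1.S libraries, whereas poly(A) RNA was selected for those of the other lines.

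Keratins are the intermediate filament proteins of epithelial cells, and they are obligate heteropolymers in which a type I chain pairs with a type II chain. KRT8 (type II) and KRT18 (type I) form the basic pair of simple epithelia, to which KRT7 (type II) and KRT19 (type I) are added in ducts and airways, while KRT15 (type I) is typical of basal cells of stratified epithelia. Vimentin is the filament protein of mesenchymal and hematopoietic cells, and EPCAM is a homophilic adhesion protein of the epithelial cell surface. Many carcinomas are classified in pathology by which of these genes they express.

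KRT7, KRT8 and KRT18 lie in the type II keratin cluster of chromosome 12 (GRCh38, GENCODE release 44). KRT7 spans bases 52232520 to 52252186 on the plus strand, and 31 keratin genes and pseudogenes separate it from KRT8, which spans 52897187 to 52949954 on the minus strand. KRT18, the one type I gene at this locus, spans 52948871 to 52952906 on the plus strand, and its annotated span overlaps that of KRT8 by 1084 bases. Exons of any annotated transcript of both genes share 525 bases, and those of the canonical transcripts share 0. KRT15 (41513745 to 41522529) and KRT19 (41523617 to 41528308) are direct neighbors on the minus strand of chromosome 17 with 1087 bases between them. EPCAM spans 47345158 to 47387601 of chromosome 2 and VIM 17228241 to 17237593 of chromosome 10, both on the plus strand.

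The RefSeq promoter table (GRCh38.p14) held 2 of the members, KRT8 and VIM. Each of them changed in opposite directions in a pair of lines, KRT8 between the lung lines and VIM between the myeloma lines, so the 250 bases before each start are printed, with capitals marking a motif match. The KRT8 window, minus strand, is chr12:52926470-52926719, which lies within the longer KRT8 span of GENCODE. It was not compared with the start of the canonical KRT8 transcript, so its motif results apply to this window alone. The VIM window, plus strand, is chr10:17227991-17228240.
KRT8: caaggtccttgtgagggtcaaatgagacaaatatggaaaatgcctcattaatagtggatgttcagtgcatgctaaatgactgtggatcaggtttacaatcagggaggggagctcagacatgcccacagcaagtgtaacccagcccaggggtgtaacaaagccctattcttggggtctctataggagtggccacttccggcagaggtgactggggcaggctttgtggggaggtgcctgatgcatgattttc
VIM: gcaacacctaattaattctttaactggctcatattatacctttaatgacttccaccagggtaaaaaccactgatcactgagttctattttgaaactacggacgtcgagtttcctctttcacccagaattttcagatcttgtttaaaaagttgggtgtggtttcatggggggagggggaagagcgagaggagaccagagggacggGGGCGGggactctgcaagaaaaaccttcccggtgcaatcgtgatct
Of the motifs searched on both strands, the octamer ATGCAAAT, the AP-1 site TGANTCA, the E-box CACCTG and the TATA box TATAAA had no match in either window. The GC box GGGCGG matched once, in VIM, 46 bases before the start. Among 35116 promoter windows of this length the GC box was present in 42.6%, the E-box in 17.5%, the TATA box in 10.7%, AP-1 in 6.57% and the octamer in 1.63%. KRT7, KRT15, KRT18, KRT19 and EPCAM had no entry in this table.

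The estimated depth of a library was 31.5 to 43.0 M reads for NCI-H526, 33.3 to 39.2 M for NCI-H1048, 12.0 to 14.0 M for NCI-H929 and 16.8 to 32.4 M for MM1.S. All values below are the deposited values, called scaled values. Cell identity was checked with fixed marker lists. Of 6 SCLC-P markers, 6 had a DMSO mean of at least 1 in NCI-H526 and 5 in NCI-H1048, where TRPM5 was near 0, against 0 in NCI-H929 and 1 in MM1.S. Of 7 plasma cell markers, 7 had a DMSO mean of at least 1 in both myeloma lines, 4 in NCI-H1048 and 2 in NCI-H526. In NCI-H1048 these were SDC1 (120), XBP1 (66.8), CD38 (2.06) and IRF4 (1.59), and in NCI-H526 XBP1 (93.4) and SDC1 (36.9). The DMSO sums of the 7 were 187 to 194 in NCI-H1048 and 131 to 132 in NCI-H526, against 7990 to 8449 in MM1.S and 21826 to 22325 in NCI-H929. Leukocyte markers summed to at most 0.583 in the lung lines. Their DMSO sums were 63.3 to 64.8 in NCI-H929, with means of 22.1 for PTPRC and 41.9 for CD3E, and 2.89 to 3.03 in MM1.S. YAP1, the marker of another SCLC subtype, had a DMSO mean of 80.9 in NCI-H1048 against 2.27 in NCI-H526.

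**Figure D1:**
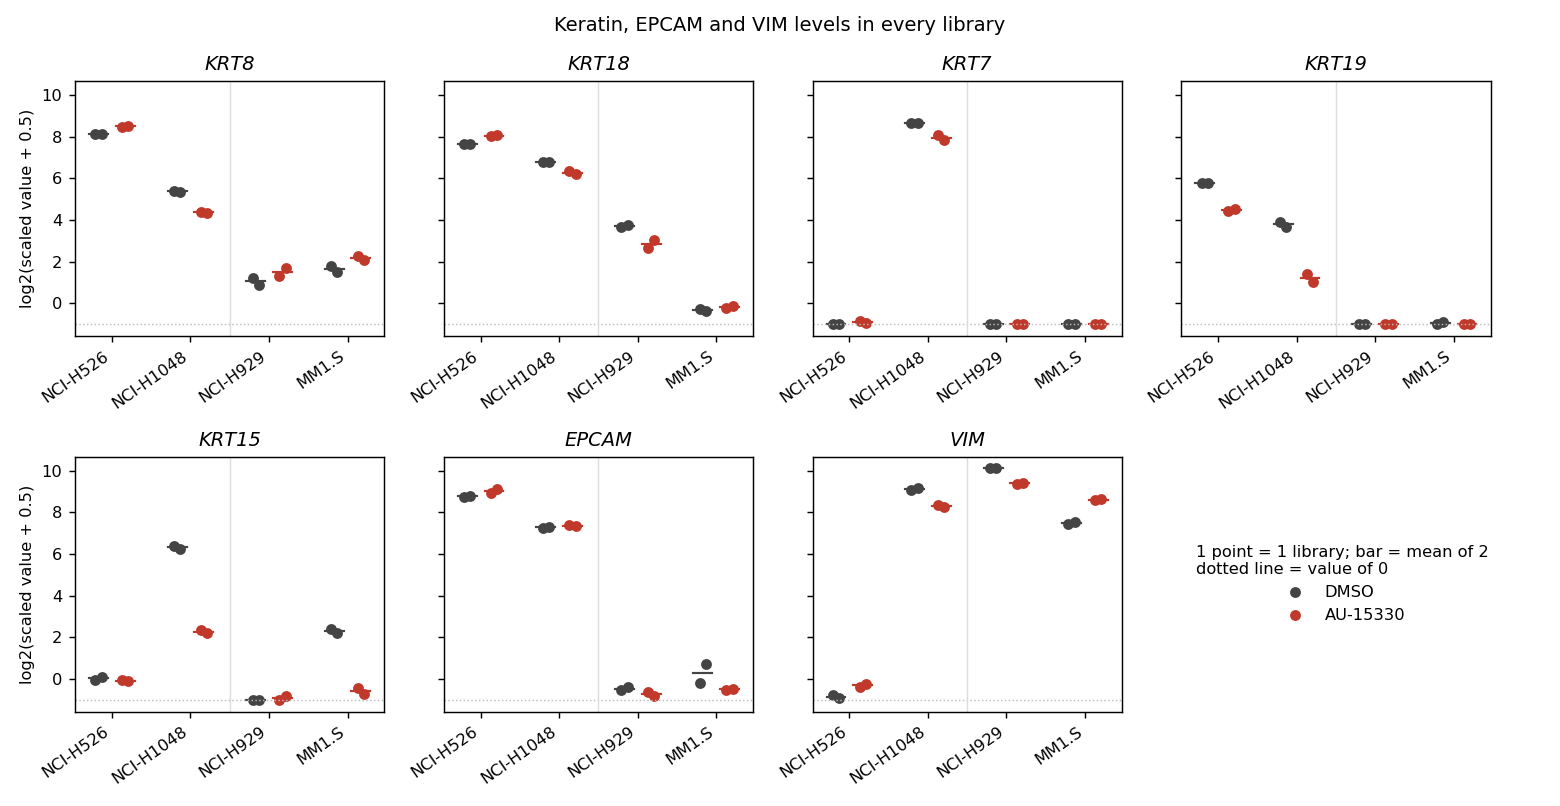
Level of each member in every library, on the scale log2(scaled value + 0.5), for NCI-H526, NCI-H1048, NCI-H929 and MM1.S from left to right. Points are single libraries (grey, DMSO; red, AU-15330) and bars are means of 2. KRT15 in NCI-H1048 drops from 83.3 and 76.2 to 4.57 and 4.14, while VIM falls in NCI-H929 and rises in MM1.S.

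The 2 SCLC-P lines had different filament profiles in DMSO. Compared per kilobase of canonical transcript, EPCAM was the most abundant member in NCI-H526 at a level of 281, followed by KRT8 at 157, KRT18 at 141 and KRT19 at 39.1. VIM, KRT7 and KRT15 were each below 0.31 per kilobase in that line, at 0.027, 0 and 0.309. NCI-H1048 expressed all 7: VIM led at a level of 258 per kilobase, with KRT7 at 249, EPCAM at 100, KRT18 at 77.6, KRT15 at 46.6, KRT8 at 23.2 and KRT19 at 9.64. NCI-H1048 therefore carried vimentin together with keratins and EPCAM, and NCI-H526 carried keratins and EPCAM with almost no vimentin.

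Of the 7 members tested in a limma contrast of DMSO levels between the lung lines, 4 were lower and 3 higher in NCI-H1048, against 79.1% of all genes tested being called in either direction. The 3 higher members, KRT7, KRT15 and VIM, had NCI-H526 means under 1. KRT7 and KRT15 passed the filter only through NCI-H1048, so the filter set their direction and their values are a description. VIM also passed through NCI-H929 (DMSO mean 1111), so the filter did not set its direction. Its values are likewise given as a description, as its NCI-H526 level rests on a few reads. KRT8 differed by -2.74 ± 0.11 (log2 difference ± SE; limma adjusted p = 4.52e-07), KRT19 by -1.98 ± 0.12, EPCAM by -1.49 ± 0.07 and KRT18 by -0.86 ± 0.05. KRT15 averaged 0.529 in NCI-H526 and 79.8 in NCI-H1048. KRT7 was at 0 in both NCI-H526 DMSO libraries and averaged 404 in NCI-H1048. That makes it at least 4978-fold higher, taking 3 reads in the shallower NCI-H526 library (a scaled value of 0.0811) as the limit of a count of 0, a limit that covers counting error only. VIM stood at 0.0907 and 0.0274 in the NCI-H526 DMSO libraries, from about 3 and 1 reads, against 542 and 569 in NCI-H1048.

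Across all 4 lines in DMSO, KRT8 was ordered NCI-H526 (279 ± 1.42, SD, n = 2), NCI-H1048 (41.4 ± 1.03), MM1.S (2.65 ± 0.412) and NCI-H929 (1.60 ± 0.347). KRT18 followed the order NCI-H526 (200 ± 1.06), NCI-H1048 (110 ± 2.01), NCI-H929 (12.6 ± 0.593) and MM1.S (0.306 ± 0.0514). Pseudogene copies, taken up below, make the myeloma levels of both genes uncertain. In DMSO the copies of KRT18 summed to 7.24 and 7.88 in MM1.S and to 2.07 and 2.32 in NCI-H929. Those of KRT8 summed to 14.6 and 14.5 in MM1.S and to 8.49 and 8.22 in NCI-H929. EPCAM was at 435 ± 8.01 in NCI-H526 and 155 ± 3.57 in NCI-H1048. It was under 1 on average in both myeloma lines (0.779 ± 0.556 in MM1.S, 0.232 ± 0.0514 in NCI-H929). KRT19 was at 54.3 ± 0.931 in NCI-H526 and 13.4 ± 1.40 in NCI-H1048, and at 0.0154 ± 0.0218 in MM1.S and 0 in NCI-H929. Whether the myeloma lines differ in these 2 genes was not tested. The simple epithelial genes thus had their high values in the lung lines. VIM ran the other way for NCI-H526: it was highest in NCI-H929 (1111 ± 0.0532), then NCI-H1048 (555 ± 19.0), MM1.S (181 ± 9.58) and NCI-H526 (0.0590 ± 0.0448). KRT15 was ordered NCI-H1048 (79.8 ± 5.02), MM1.S (4.46 ± 0.501), NCI-H526 (0.529 ± 0.0595) and NCI-H929 (0 in both). Levels in MM1.S are set beside the others without a test, because library method and line cannot be told apart there.

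AU-15330 changed the KRT8 and KRT18 pair in opposite directions in the 2 lung lines. In NCI-H526, KRT8 was at 278 and 280 in DMSO and at 355 and 367 with AU-15330. KRT18 was at 199 and 201 in DMSO and at 260 and 270 with AU-15330. Both treated libraries lay above both control libraries for each gene. Arms of 2 libraries that do not overlap are weak evidence, as members below the filter also had them (KRT15 in NCI-H526 and KRT18 in MM1.S). The share of all genes with such arms was not counted. KRT8 rose by 0.37 ± 0.04 (log2 fold change ± SE, a 1.29-fold change; limma adjusted p = 2.39e-05) and KRT18 by 0.41 ± 0.04 (1.32-fold; limma adjusted p = 1.24e-05).

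In NCI-H1048 the same pair was lower after treatment. KRT8 was at 42.1 and 40.7 in DMSO and at 20.4 and 20.0 with AU-15330, a log2 change of -1.02 ± 0.11 (limma adjusted p = 3.43e-07). KRT18 was at 108 and 111 in DMSO and at 80.3 and 73.4 with AU-15330, a log2 change of -0.51 ± 0.10 (limma adjusted p = 0.000431). KRT8 was thus 2.03-fold lower and KRT18 1.43-fold lower. Tested as a difference of effects, NCI-H1048 minus NCI-H526, KRT8 differed by -1.39 ± 0.09 (limma adjusted p = 1.17e-06) and KRT18 by -0.92 ± 0.09 (limma adjusted p = 2.99e-05). In bulk samples such as these, fewer cells of a type and less RNA per cell cannot be told apart.

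Processed pseudogenes of KRT8 and KRT18 are many, and the table listed 50 named copies of KRT8 and 67 of KRT18, between which and the genes pseudoalignment can split reads. The copies summed to at most 2.43% of KRT8 and 2.03% of KRT18 in any NCI-H526 library, and to at most 29.9% and 3.33% in NCI-H1048. With all copies added to the gene, an alternative chosen after seeing the data, the KRT8 change was 0.37 in NCI-H526 and -0.88 in NCI-H1048, and the KRT18 change 0.40 and -0.50, each still past the threshold. Whether the counting used strand is not given in the sources used here, and reads from the stretch that the KRT8 and KRT18 exons share could fall to either.

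KRT19, the type I partner that lacks the usual tail domain, fell in both lung lines. In NCI-H526 it was at 53.7 and 55.0 in DMSO and at 21.1 and 22.7 with AU-15330 (log2 change -1.29 ± 0.06, limma adjusted p = 4.73e-08). In NCI-H1048 it was at 14.4 and 12.4 in DMSO and at 2.15 and 1.51 with AU-15330 (log2 change -2.59 ± 0.17, limma adjusted p = 4.75e-10). The groups did not overlap in either line, with the limit given for KRT8 and KRT18. The fall was larger in NCI-H1048 by 1.29 ± 0.18 log2 units (difference -1.29, limma adjusted p = 0.00035).

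KRT15, the basal-cell keratin next to KRT19, had the largest log2 change among the members in NCI-H1048. It was at 83.3 and 76.2 in DMSO and at 4.57 and 4.14 with AU-15330, a log2 change of -4.05 ± 0.12 or a 16.6-fold fall (limma adjusted p = 2.12e-15). In NCI-H526 it stood at 0.487 and 0.571 in DMSO and at 0.471 and 0.426 with AU-15330, below the filter of a mean of 1, and was not tested. Its neighbor KRT19 was expressed in both lines, whereas KRT15 had a level above the filter in NCI-H1048 only of the pair.

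KRT7, the type II keratin of ducts and glands, was the most abundant keratin of NCI-H1048. It was at 410 and 397 in DMSO and at 271 and 228 with AU-15330, a log2 change of -0.70 ± 0.10 (limma adjusted p = 2.04e-05). The NCI-H526 libraries held 0 and 0 reads of it in DMSO and 2 and 1 with AU-15330. Such counts are within the 3 reads that a count of 0 allows and show no detectable level in either arm.

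VIM was lower in NCI-H1048 after treatment, at 542 and 569 in DMSO and at 330 and 310 with AU-15330 (log2 change -0.79 ± 0.09, limma adjusted p = 1.75e-06). In NCI-H526 it was at 0.0907 and 0.0274 in DMSO and at 0.282 and 0.340 with AU-15330, from about 3, 1, 9 and 12 reads. The 2 treated NCI-H526 libraries were the higher ones, but every library was below the filter. VIM was tested there only in the alternative with no filter. Fibroblasts also express VIM, and their 6 markers summed to 93.0 to 94.1 in the NCI-H1048 DMSO libraries and to 57.9 to 61.9 with AU-15330. In that line 3 of the 6 had a DMSO mean of at least 1, and their means went from 37.8 to 23.5 for COL1A1, from 53.4 to 35.4 for PDGFRA and from 1.62 to 0.528 for PDGFRB. COL3A1, DCN and LUM had DMSO means of 0.336, 0.475 and 0.0125. The part of such cells in the VIM result was not tested.

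EPCAM moved least. In NCI-H1048 it was at 152 and 157 in DMSO and at 167 and 160 with AU-15330 (log2 change 0.08 ± 0.09, 95% interval -0.12 to 0.27, limma adjusted p = 0.543). In NCI-H526 it was at 430 and 441 in DMSO and at 483 and 560 with AU-15330 (log2 change 0.26 ± 0.06, limma adjusted p = 0.00553). The 2 treated NCI-H526 libraries differed from each other by more than the lower of them differed from the controls, and the log2 change was 0.15 to 0.36 with 1 library left out. That call ended without a variance trend (limma adjusted p = 0.064) and in a single fit of all 16 libraries (limma adjusted p = 0.329). The difference between the lines was -0.18 ± 0.10 (95% interval -0.41 to 0.05, limma adjusted p = 0.229).

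In NCI-H526, 4 of the members passed the filter. Of these, 3 rose and 1 fell, against 29% and 29.8% of all genes tested that were called higher and lower there. In NCI-H1048, 7 passed the filter, of which 0 rose, 6 fell and 1 did not pass the test, against 16.9% and 18.2% of all genes. Of the 4 members tested for a difference between the lines, 3 passed, all toward lower values in NCI-H1048, against 28.9% of all genes in either direction. Both arms of each of these members had a mean above 1. As the members were chosen with earlier results of these data known, the counts are a description.

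**Figure D2:**
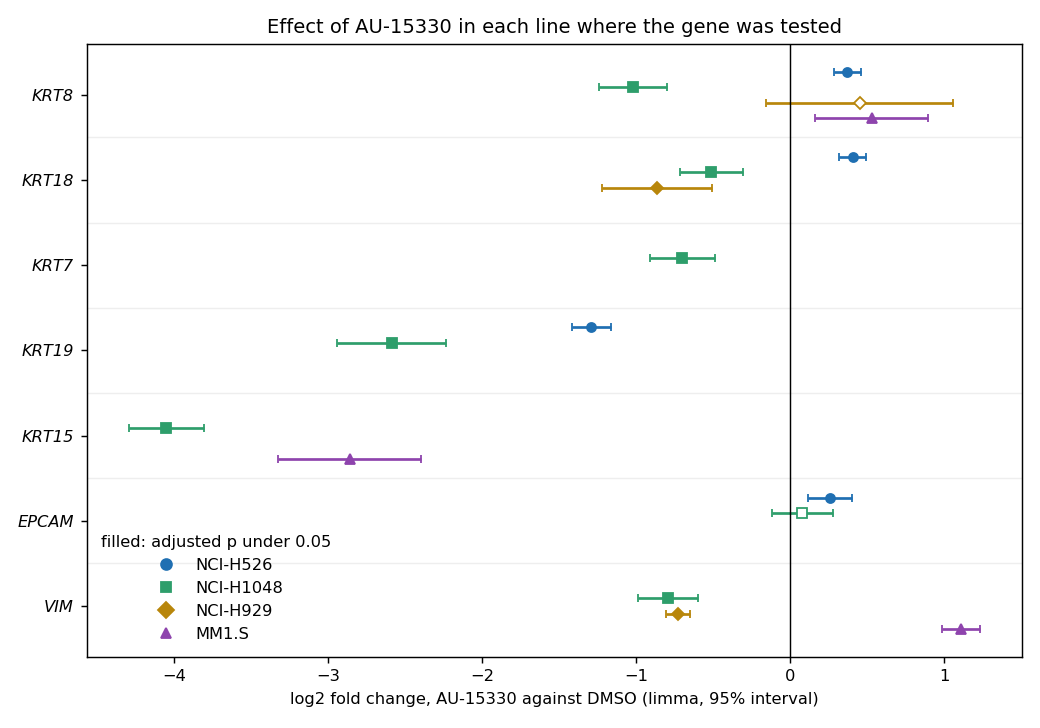
Log2 fold change of AU-15330 against DMSO for each member in each line where it passed the filter, with 95% intervals from limma (2 against 2 libraries). Filled symbols passed an adjusted p of 0.05. KRT8 and KRT18 lie on opposite sides of 0 in the lung lines, KRT15 reaches -4.05 in NCI-H1048, its MM1.S direction is set by the filter, and VIM lies at -0.73 in NCI-H929 and 1.11 in MM1.S.

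Because keratins polymerize as pairs, the balance of type I and type II transcripts was compared. The ratio of KRT8 to KRT18 scaled values was 1.40 and 1.40 in the NCI-H526 DMSO libraries and 1.37 and 1.36 with AU-15330. In NCI-H1048 it was 0.389 and 0.366 in DMSO and 0.254 and 0.272 with AU-15330. KRT8 and KRT18 thus kept nearly the same proportion in NCI-H526, and KRT8 lost ground to KRT18 in NCI-H1048. Summed over all keratin genes per kilobase, type I transcripts went from 160 ± 0.490 to 77.7 ± 4.38 in NCI-H1048 and type II from 274 ± 6.38 to 165 ± 18.8 (mean ± SD, n = 2). The type II sum of NCI-H1048 was mostly KRT7. In NCI-H526 the type I sum was 249 ± 1.40 and 239 ± 7.89, and the type II sum, nearly all KRT8, went from 158 ± 0.615 to 203 ± 4.60. The ratio of type II to type I accordingly moved from 0.633 to 0.851 in NCI-H526 and from 1.71 to 2.13 in NCI-H1048. No arm overlapped the other in these sums and ratios, but an exact permutation test of 2 against 2 libraries (two-sided) cannot go below p = 0.333, which is the value each of them gave.

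**Figure D3:**
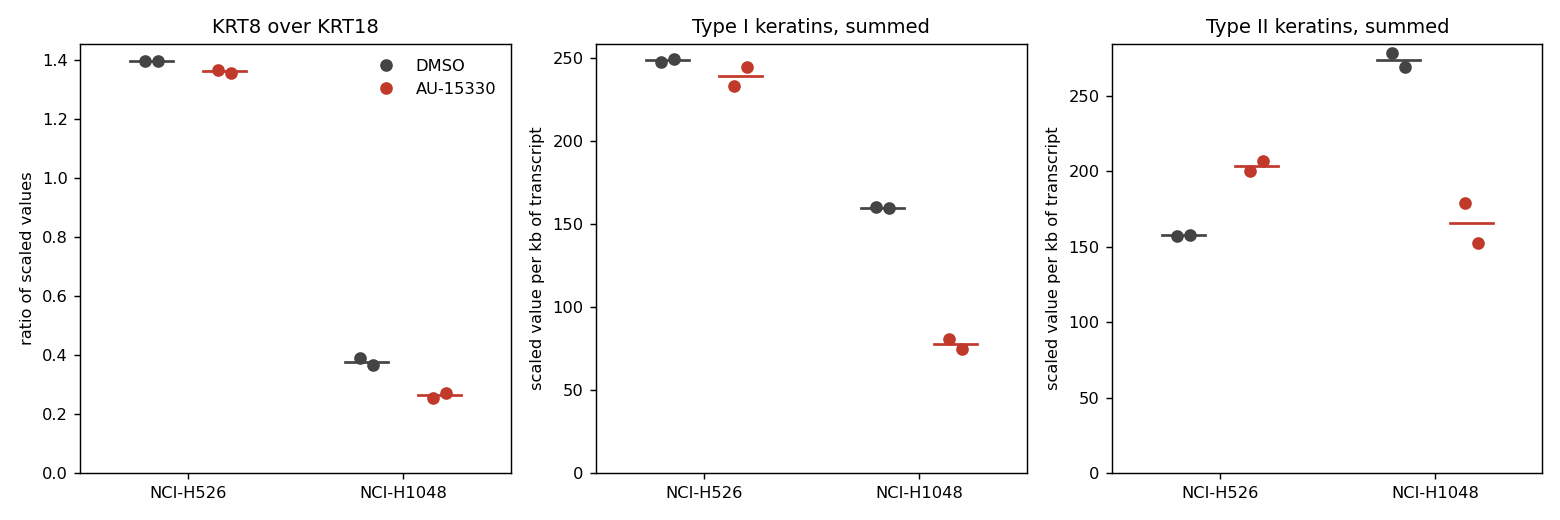
Ratio of KRT8 to KRT18 scaled values (left), and the sum of all type I (middle) and type II (right) keratin genes per kilobase of canonical transcript, in the lung lines. Points are libraries (grey, DMSO; red, AU-15330) and bars are means of 2. In NCI-H1048 all 3 measures fall; in NCI-H526 the type II sum rises from 158 to 203 while the KRT8 to KRT18 ratio stays between 1.36 and 1.40.

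The table held 55 protein-coding keratin genes, 29 of type I and 26 of type II. A mean of at least 1 was reached by 7 of them in NCI-H526, 11 in NCI-H1048, 3 in NCI-H929 and 3 in MM1.S. The 5 member keratins made up 82.9% to 91.9% of the summed keratin level per kilobase in NCI-H526 libraries and 91.2% to 93.9% in NCI-H1048.

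Among the 50 other keratins, 4 were tested in NCI-H526, and there 0 rose, 3 fell and 1 did not pass. KRT40, a hair-type keratin, was the largest of them, at 98.8 and 99.9 in DMSO and at 42.6 and 48.3 with AU-15330 (log2 change -1.12 ± 0.06, limma adjusted p = 1.52e-07). The hair keratins KRT39 and KRT31 had log2 changes of -1.35 and -1.37, from DMSO means of 2.62 and 2.40 to 0.722 and 0.624. They passed the filter only through the DMSO arm and so could only fall, which leaves KRT40 as the 1 other keratin whose fall the filter did not set.

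In NCI-H1048, 6 other keratins were tested, of which 2 rose, 3 fell and 1 did not pass. KRT28, an inner root sheath keratin, was at 16.3 and 19.1 in DMSO and at 5.27 and 7.21 with AU-15330 (log2 change -1.44 ± 0.15, limma adjusted p = 2.86e-07). The basal keratins KRT5 and KRT17 had log2 changes of -1.71 and -1.51, from DMSO means of 1.97 and 2.29 to 0.262 and 0.490. KRT24 and KRT25, which lie in the same type I cluster as KRT28, were the ones that rose. KRT24 was at 0.150 and 0.0297 in DMSO and at 6.04 and 4.88 with AU-15330 (log2 change 3.34, limma adjusted p = 1.47e-09), and KRT25 at 0.0500 and 0.0297 against 2.07 and 2.44 (log2 change 2.35, limma adjusted p = 1.42e-06). KRT5 and KRT17 passed the filter only through the DMSO arm, and KRT24 and KRT25 only through the treated arm, so the filter set the direction of these 4 and KRT28 is the 1 called gene with both arms above 1. KRT10, a type I keratin of epidermis, had log2 changes of -0.12 in NCI-H526 and -0.06 in NCI-H1048 and did not pass in either. KRT39, KRT31, KRT24, KRT25, KRT5, KRT17 and KRT10 are named because they complete the expressed keratins, a choice made after their values were seen.

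**Figure D4:**
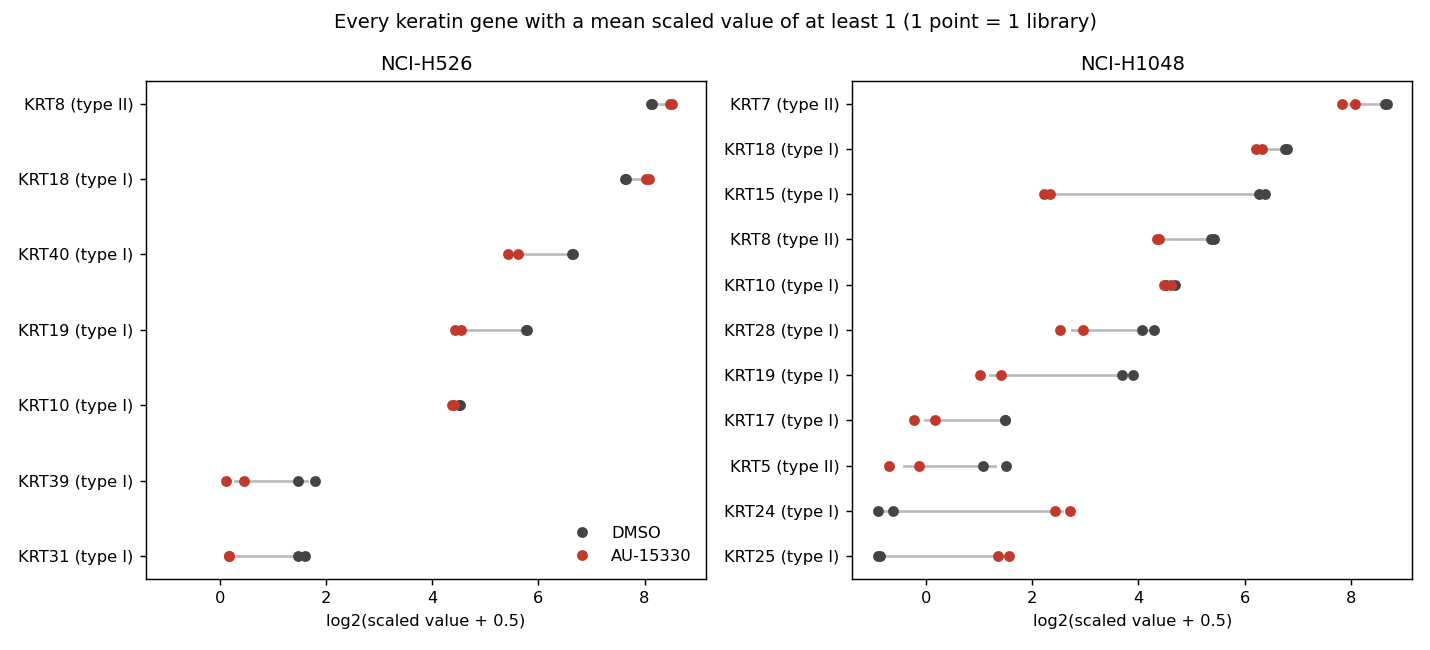
Keratin genes with a mean scaled value of at least 1 in NCI-H526 (left, 7 genes) and NCI-H1048 (right, 11 genes), ordered by DMSO level, on the scale log2(scaled value + 0.5). Points are libraries (grey, DMSO; red, AU-15330), and lines join the means of the arms. In NCI-H526 KRT8 and KRT18 are the genes with red points to the right of grey ones; in NCI-H1048 these are KRT24 and KRT25.

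Genes that work with keratins, vimentin or EPCAM were counted from set lists, which were chosen with earlier results of these data known. Some lists share genes, so their counts are not separate observations. EHF, ELF3 and GRHL2 are on both the epithelial junction and the transcription factor lists. CLDN7, SPINT1, SPINT2 and ST14 are on both the epithelial junction and the EPCAM partner lists. The median log2 change over all genes tested was -0.00080 in NCI-H526 and 0.01 in NCI-H1048. Of all genes tested, 29% were called higher and 29.8% lower in NCI-H526, and 16.9% and 18.2% in NCI-H1048. A list count near these shares is no result about the list. Single list genes were not compared between the lines here, so passing in 1 line only does not show a difference. Genes with only 1 arm above 1, whose direction the filter set, were few in these lists: in NCI-H526 they were 1 of the 14 falling junction genes, 1 of the 9 falling EPCAM partners and 2 of the 7 falling transcription factors, and in NCI-H1048 1 of the 7 falling junction genes. Of the other intermediate filament genes (nestin, neurofilaments, lamins, synemin and others), 10 were tested in NCI-H526, where 2 rose and 5 fell (list median -0.15), and 8 in NCI-H1048, where 0 rose and 3 fell (median -0.06). NES, which encodes nestin, a partner of vimentin, fell in both lines. It went from 42.9 and 45.8 to 15.5 and 14.6 in NCI-H526 and from 56.3 and 51.9 to 24.2 and 19.7 in NCI-H1048. SYNM, which encodes synemin, another filament protein that copolymerizes with vimentin, also fell in both (log2 changes -0.88 and -0.58). The neurofilament gene NEFH fell in NCI-H526 (-1.04), and the neuronal filament gene INA fell in NCI-H526 (-0.41) and NCI-H1048 (-1.51).

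Desmosomes anchor keratin filaments to the cell membrane through desmoplakin and the plakophilins, and the larger plakins link filaments to other cytoskeletal systems. Of the desmosome and plakin genes, 14 were tested in NCI-H526, where 2 rose and 7 fell (list median -0.12), and 12 in NCI-H1048, where 2 rose and 4 fell (median -0.07). The plakophilin gene PKP3 fell in NCI-H526 (log2 change -0.94) and NCI-H1048 (-0.30), and PKP2 fell in NCI-H526 (-0.38) and had a log2 change of -0.08 in NCI-H1048 that did not pass. DSP, which encodes desmoplakin, went from 607 and 585 to 353 and 419 in NCI-H1048 (-0.63 ± 0.10, limma adjusted p = 6.49e-05), and fell by less in NCI-H526 (-0.12). The crosslinker gene MACF1 fell in both lines (-0.38 and -0.49), and PPL, which encodes periplakin, rose in NCI-H1048 (0.46) and fell in NCI-H526 (-0.47).

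The epithelial junction and identity list had 32 tested genes in each lung line. In NCI-H526, 10 rose and 14 fell (list median -0.10), and in NCI-H1048, 7 rose and 7 fell (median 0.01). EHF, an ETS factor of epithelia, went from 187 and 185 to 79.2 and 81.5 in NCI-H526 and from 321 and 350 to 58.8 and 76.7 in NCI-H1048, so it fell in both. The splicing regulator ESRP1, which maintains epithelial isoforms, rose in NCI-H526 (0.88), where the protease gene ST14 fell (-0.61). In NCI-H1048 these genes did not pass, with log2 changes of 0.11 and -0.17. The ETS factor ELF3 fell in NCI-H1048 (-2.48) and rose in NCI-H526 (0.46). The tight junction gene CLDN1 fell in NCI-H1048 (-1.75), and in NCI-H526 its mean went from 3.30 to 0.621.

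Of the mesenchymal genes, 10 were tested in NCI-H526, where 2 rose and 4 fell (list median -0.20), and 16 in NCI-H1048, where 3 rose and 7 fell (median -0.13). In NCI-H1048, the line with vimentin, the matrix gene VCAN went from 195 and 189 to 51.1 and 72.3 (log2 change -1.65), the collagen crosslinking gene LOX from 302 and 299 to 127 and 143 (-1.16) and the transcription factor gene SNAI2 from 22.0 and 19.5 to 9.75 and 10.6 (-0.99). THY1 fell in NCI-H526 (-1.26) and NCI-H1048 (-0.37). CDH2, which encodes N-cadherin, fell in NCI-H526 (-0.27) and rose in NCI-H1048 (0.64). TAGLN, a smooth muscle actin-binding gene, rose in NCI-H526 (0.67 ± 0.10) and did not pass in NCI-H1048 (0.39 ± 0.20), which does not show that the lines differ.

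EPCAM is cleaved by matriptase, ADAM proteases and gamma-secretase and associates with CLDN7, CD9 and CD44 at the membrane. Of these partners and proteases, 17 were tested in NCI-H526, where 2 rose and 9 fell (list median -0.30), and 16 in NCI-H1048, where 3 rose and 2 fell (median -0.01). PSENEN, a gamma-secretase subunit gene, rose in both lines, from 44.5 and 44.1 to 107 and 121 in NCI-H526 and from 20.4 and 23.2 to 38.9 and 40.8 in NCI-H1048. CD9 fell in NCI-H526 (log2 change -1.28) and did not pass in NCI-H1048 (0.22). CD44 fell in NCI-H1048 (-1.76) and did not pass in NCI-H526 (-0.34), where its DMSO mean was 1.72. The protease inhibitor gene SPINT2 rose in NCI-H1048 (0.49) and NCI-H526 (0.25).

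Of the transcription factors of epithelial lineages, 13 were tested in each lung line. In NCI-H526, 4 rose and 7 fell (list median -0.50), and in NCI-H1048, 3 rose and 9 fell (median -0.79). SOX9, a factor of progenitor epithelia that is also on the SCLC-P marker list, went from 369 and 381 to 214 and 216 in NCI-H526 and from 476 and 452 to 113 and 110 in NCI-H1048. FOXA1, a pioneer factor of endodermal epithelia, fell in NCI-H526 (log2 change -1.18) and NCI-H1048 (-1.45). The 6 SCLC-P markers summed to 2660 and 2680 in the NCI-H526 DMSO libraries and to between 885 and 898 with AU-15330. In NCI-H1048 they summed to between 1358 and 1452 in DMSO and between 187 and 194 with AU-15330. Their part in the keratin results was not tested.

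In the myeloma lines, VIM was the abundant member and moved in opposite directions. In NCI-H929 it was at 1111 and 1111 in DMSO and at 652 and 689 with AU-15330 (log2 change -0.73 ± 0.04, limma adjusted p = 2.94e-10). In MM1.S it was at 174 and 188 in DMSO and at 383 and 396 with AU-15330 (log2 change 1.11 ± 0.06, limma adjusted p = 2.19e-08). Neither line had overlapping arms, with the limit given for the lung lines, and the levels of the lines moved toward each other. The difference of the effects, MM1.S minus NCI-H929, was 1.83 ± 0.07 (limma adjusted p = 8.61e-09), and library method and line cannot be told apart in it. Quantile normalization left the NCI-H929 change at -0.39.

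The keratins of the myeloma lines were at low levels. KRT18 was at 12.2 and 13.0 in DMSO and at 5.80 and 7.74 with AU-15330 in NCI-H929, and fell (log2 change -0.86 ± 0.17, limma adjusted p = 0.000308). In MM1.S it was between 0.269 and 0.422 in every library and was not tested as deposited. KRT15 was expressed in MM1.S in DMSO, at 4.81 and 4.11, and was at 0.252 and 0.117 with AU-15330, from about 5 and 3 reads. Its log2 change was -2.86 (SE 0.21, limma adjusted p = 3.53e-07), a size that the pseudocount sets in part, as it was -4.04 with 0.1 and -2.20 with 1. KRT15 passed the filter in MM1.S only through the DMSO arm, so the filter set its direction and the values are a description. In NCI-H929 it had 1 read in 1 of 4 libraries.

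KRT8 in NCI-H929 was at 1.85 and 1.36 in DMSO and at 2.00 and 2.75 with AU-15330 (log2 change 0.45 ± 0.28, 95% interval -0.16 to 1.06, limma adjusted p = 0.16). In MM1.S it was at 2.94 and 2.36 in DMSO and at 4.32 and 3.74 with AU-15330 (log2 change 0.53 ± 0.17, limma adjusted p = 0.0142). The MM1.S call ended without DMSO replicate 2 (limma adjusted p = 0.125), without AU-15330 replicate 1 (limma adjusted p = 0.0537) and with no filter on low values (limma adjusted p = 0.0539). The pseudogene copies of KRT8 summed to more than the gene itself in every myeloma library, from 8.22 to 15.8 in NCI-H929 and from 14.5 to 22.7 in MM1.S, so its single-gene values there are uncertain. With the copies added, the KRT8 change was 0.72 in NCI-H929 (limma adjusted p = 0.000206) and 0.61 in MM1.S (limma adjusted p = 5.2e-05). The copies of KRT18 summed to at most 48.8% of the gene in NCI-H929 and to 7.24 to 11.4 in MM1.S, above the gene. With the copies added, KRT18 passed the filter in MM1.S and was called higher there (log2 change 0.52, limma adjusted p = 0.00145), which made 3 members higher, while in NCI-H929 it stayed lower (-0.64).

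KRT7 was at 0 in all 8 myeloma libraries and KRT19 in 7 of them, with 1 read in the eighth. EPCAM had 1 to 3 reads per library in NCI-H929. In MM1.S it had 9 and 38 reads in DMSO (scaled values of 0.386 and 1.17) and 4 and 6 with AU-15330, and it was not tested. Of 3 members tested in NCI-H929, 0 rose and 2 fell, against 38.4% and 37.6% of all genes called higher and lower. Of 3 tested in MM1.S, 2 rose and 1, KRT15, was called lower with the limit above, against 33.9% and 40.2%. Of the 2 members tested for a difference between the myeloma lines, VIM passed and KRT8 did not (0.08 ± 0.31), against 48.3% of all genes. The one other keratin with a level above the filter in these lines, KRT10, fell in both, from 18.1 and 15.9 to 10.2 and 9.84 in NCI-H929 and from 20.8 and 20.5 to 11.1 and 14.2 in MM1.S.

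The context lists gave the following counts in the myeloma lines, beside median changes over all genes tested of 0.04 in NCI-H929 and -0.03 in MM1.S. Of all genes tested, 38.4% were called higher and 37.6% lower in NCI-H929, and 33.9% and 40.2% in MM1.S. A list count near these shares is no result about the list. Of the other intermediate filament genes, 1 rose and 4 fell of 6 tested in NCI-H929 (list median -0.73), and 0 rose and 6 fell of 7 in MM1.S (median -1.80). Among them NES, the abundant filament gene of NCI-H929, went from 2082 and 2160 to 1086 and 1073, and the lamin genes LMNB1 and LMNB2 fell in both lines. Of the 6 called lower in MM1.S, 2 had only the DMSO arm above 1 and so could only fall, which leaves 4, beside the rise of VIM. Of the mesenchymal genes, 8 rose and 3 fell of 13 in NCI-H929 (median 0.30), and 6 rose and 4 fell of 11 in MM1.S (median 0.57). Among these, ZEB1, a transcription factor of mesenchymal state, went from 41.6 and 39.4 to 85.2 and 90.5 in MM1.S, while the matrix gene SPARC fell there (log2 change -3.04). Of the desmosome and plakin genes, 4 rose and 2 fell of 8 in NCI-H929, and 2 rose and 3 fell of 9 in MM1.S. The epithelial junction list had 6 rising and 3 falling of 13 in NCI-H929 and 4 rising and 10 falling of 21 in MM1.S. For the EPCAM partners these counts were 5 and 6 of 15 in NCI-H929 and 5 and 8 of 14 in MM1.S, and for the epithelial transcription factors 2 and 0 of 6 and 4 and 1 of 8. In NCI-H929 the counts include genes with only 1 arm above 1, namely 1 rising and 2 falling mesenchymal genes, 1 rising and 2 falling junction genes, and 1 rising and 1 falling EPCAM partner.

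For each member the 2 genes of most like pattern were found among 12785 genes, by the root mean square difference of log2(value + 0.5) over the 8 group means after centering each gene. These points share libraries within a line, and the differences between lines dominate them, so a neighbor need not share the response to AU-15330. KRT19 had the closest neighbors, INHBB (0.30) and DSCAML1 (0.32). The group means of INHBB, which encodes an activin subunit, were 58.0 in DMSO and 26.1 with AU-15330 in NCI-H526, and 23.4 and 3.82 in NCI-H1048. KRT8 was most like OVOL1 (0.41) and NOL4 (0.42), and KRT18 most like CKMT1B (0.57) and RASD2 (0.67). In NCI-H526, where KRT8 and KRT18 rose, the mean of OVOL1 went from 46.0 to 38.3 and that of CKMT1B from 76.3 to 72.0. NOL4 went from 41.9 to 45.5 and RASD2 from 125 to 131 there. KRT7 was most like EGFR (0.61), which had group means of 272 in DMSO and 148 with AU-15330 in NCI-H1048 and was near 0 in NCI-H526, followed by LOX (0.71). EPCAM was most like PDZRN3 (0.51) and ALDH1A1 (0.59). In NCI-H526, where the EPCAM mean was higher with AU-15330, PDZRN3 went from 159 to 189 and ALDH1A1 from 770 to 270. KRT15 had PLA2G4D (0.84), which went from a mean of 67.7 to 3.45 in NCI-H1048, and CDH22 (0.85). VIM had the least alike neighbors, EPB41L2 (0.86) and MSN (1.06), the gene of moesin, which links the membrane to actin. In MM1.S, where VIM rose, EPB41L2 went from 51.45 to 106 and MSN from 468 to 174.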

How the data were processed

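RNA-seq libraries of 4 cell lines were analysed, 2 per line and arm. Per the labels and the study's methods, reads were pseudoaligned to the hg38 transcriptome with kallisto, and the authors used edgeR and limma. The deposited values are named CPM, but library totals ranged from 0.829 to 1.19 M with a geometric mean of 1, so the authors' values were treated as a scaled signal. Low values were whole multiples of 1 step per library in 74.8% to 80.1% of cases (tolerance 0.1 of a step), so whole reads were not recovered. The main test was not a count test, and estimated reads entered only the limma-voom alternative. Read numbers given are values divided by the step. The limma-trend test (limma 3.58.1, R 4.3.3, two-sided) was run within a line on log2(value + 0.5), which understates changes of low genes. Tested genes had a mean of at least 1 over the 4 libraries, and Benjamini-Hochberg adjustment ran over all of them with a threshold of 0.05. Differences between lines were contrasts in a fit of both lines, and DMSO levels were compared over the 6 poly(A) DMSO libraries. Fits were tried on simulated data with the same spread beyond counting error for all genes, lines and arms. The spread of the real replicates varied between groups, so that trial does not give the error rate of these fits. The members and lists were chosen with earlier results of these data known. Named from each list were up to 3 called genes in a line, of mean 5 or more, with the smallest adjusted p. Their values in the other lung line were added after they were seen. Nearest genes had a highest group mean of at least 10. Gene IDs matched GENCODE 44 for 35444 of 35606 rows. No libraries held identical values, and replicates differed by more than counting error. Protein sequences were not used here. Alternatives covered the pseudocount, the filter, 3 other scalings, the variance trend, a fit of all 16 libraries, limma-voom on estimated reads, a replicate block and leaving out each library.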

Additional observations from a re-analysis of the deposited data

Results flagged for a closer look

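The effect of AU-15330 differed between the lung lines, by a limma test of the difference itself (NCI-H1048 minus NCI-H526), for KRT8 (-1.39 on the log2 scale), KRT18 (-0.92) and KRT19 (-1.29). For KRT8 and KRT18 the lines moved in opposite directions, and for KRT19 both fell. It also differed between the myeloma lines (MM1.S minus NCI-H929) for VIM (1.83), which rose in MM1.S and fell in NCI-H929. The cause of these differences was not tested.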

How the results depend on the processing

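Across the alternatives, 350 counts stayed within 1.5 times the count as reported and 16 moved, and of the values of single members 465 kept their direction and side of the threshold, 5 lost and 2 gained a call, and 6 turned. In NCI-H1048 the genes called numbered 4808 as reported, 2810 with no filter, and 2248 to 6503 with 1 library left out (2248 without DMSO replicate 1, 2653 without DMSO replicate 2), and the 6 members that fell were the same number throughout. For the difference between the lung lines, 3623 genes were called as reported and 2303 to 5433 with 1 library left out (2389 without NCI-H526 DMSO replicate 1, 2303 without DMSO replicate 2). With no filter, 6 members differed between the lung lines, since KRT7, KRT15 and VIM were then tested, and 2 were higher and 1 lower in the myeloma difference. Within NCI-H526, 4 of 7 members were called higher with no filter, against 3 of 4 as reported. The added members were KRT7, KRT15 and VIM, all under the filter there. In MM1.S a filter at a mean of 5 left 1 member higher and 0 lower, since VIM alone was then tested; the count higher was 1 with no filter, 1 to 2 with a library left out, and 3 with pseudogene copies added (KRT18, then tested, at 0.52). In NCI-H929, 1 member (KRT8) was called higher in a fit of all 16 libraries and with pseudogene copies added; that last alternative gave 2 higher in the myeloma difference. KRT8 turned to -0.0176 in NCI-H929 under quantile normalization, and its myeloma difference to -0.11 with copies added and to between -0.11 and 0.27 with a library left out; none of these passed the test. By the labels, same-numbered libraries shared only a number. Correlations of their deviations from the arm means were 0.01 in NCI-H526, 0.22 in NCI-H1048, -0.01 in NCI-H929 and -0.14 in MM1.S. A replicate block gave 8602 called genes in NCI-H526 (8041 as reported) and 5930 in NCI-H1048 (4808 as reported). It changed no member's call, and whether libraries of NCI-H1048 were paired was not tested. Total-count scaling moved the median change of all genes to 0.25 in NCI-H929 and 0.19 in MM1.S, with 6397 genes higher and 3798 lower in NCI-H929 (5035 and 4931 as reported) and 6362 and 4248 in MM1.S (4685 and 5568), and 1559 higher and 2031 lower in the lung difference (1943 and 1680); the members called kept their direction. Other causes were not tested. With 2 libraries a group, depth and spread limit members under about 1 scaled value, which were not tested.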
